A study of Mus musculus with 7 samples.

Results

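The genes described here are 39 genes of glucose uptake, glycolysis, lactate handling and the transcriptional response to low oxygen. They were taken by gene symbol from a table of 35976 symbols, and all 39 were present. By role they comprise 2 glucose transporters, 9 genes of glucose capture and upper glycolysis, 2 regulators of phosphofructokinase, 6 genes of lower glycolysis, 4 lactate genes and 16 targets of the hypoxia-inducible factors (HIF). Levels were measured by RNA-seq in 7 libraries from the amygdala. The mice were C57BL/6J males in which an adeno-associated virus (AAV) brought in a guide RNA against the Rosa locus (sgRosa, the control, 4 libraries) or against Nr2f2 (sgNr2f2, 3 libraries). In both groups Cas9 was expressed from the hSyn promoter, which drives expression in neurons. Mice of both groups were then kept in restraint tubes for 7 days, fear conditioned for 1 day and taken through extinction for 3 days, so no library comes from unstressed mice. Amygdala cells were freed with papain and passed through a magnetic isolation kit for adult neurons before RNA was extracted. The labels do not say whether a library is 1 mouse or a pool, and p-values therefore measure the spread between these libraries, which may be partly technical.

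Glycolysis splits glucose into pyruvate in the cytosol, and lactate dehydrogenase interconverts pyruvate and lactate. In the brain, endothelial cells take glucose from the blood through the transporter Slc2a1, neurons take it up mainly through Slc2a3, and glial cells can pass lactate to other cells through monocarboxylate transporters. When oxygen is short, the HIF-alpha proteins escape the prolyl hydroxylases that mark them for degradation, and with their partner Arnt they bind short DNA elements with the core ACGTG or GCGTG. Many glycolytic genes are among their targets. Nr2f2 (COUP-TFII) is a nuclear receptor transcription factor, and the study set sgNr2f2 beside sgRosa to look at its role in neurons under chronic stress.

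Levels are given as CPM, read counts relative to library totals scaled by edgeR's TMM factors. Total counts ran from 15335076 to 20928677 in 6 libraries, and sgRosa replicate 4 had 6266897. That library stood apart in other ways. Its erythroid markers summed to 31592 CPM, against 1049.9 to 3065 CPM in the other libraries, and Mbp, which encodes myelin basic protein, took 1.47% of its counts against 10.3 to 25.8%. Results are therefore given with and without it. Despite the neuron isolation, the summed level of the 12 neuron markers was between 636 and 3006 CPM (sgRosa) or 657 and 724 CPM (sgNr2f2), and that of the 10 oligodendrocyte markers between 22954 and 346566 or 165816 and 408057 CPM. For the 7 endothelial markers the sums ran from 2271 to 5083 and from 2492 to 5877 CPM in the same order, and for the 8 astrocyte markers from 117 to 389 and from 169 to 281 CPM. The highest neuron sum and the lowest oligodendrocyte and astrocyte sums were those of sgRosa replicate 4. In the other libraries the neuron sum ran from 636 to 1011 CPM and the oligodendrocyte sum from 97735 to 408057 CPM. How much of each member's RNA came from neurons, the cells that expressed Cas9, was not measured. In such bulk samples fewer cells of a type and less RNA per cell cannot be told apart. The targeted gene Nr2f2 itself lay at 19.8, 16.5, 11.3 and 13.1 CPM in sgRosa replicates 1 to 4 and at 11.9, 11.997 and 11.6 CPM in sgNr2f2 replicates 1 to 3. The groups overlapped, with a log2 fold change of -0.36 (SE 0.37, edgeR adjusted p = 0.905), and a Cas9 cut need not lower the transcript count.

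No member passed the threshold of an adjusted p under 0.05 in edgeR's quasi-likelihood test, and the smallest adjusted p among the 37 members tested was 0.868. The same held for all genes, of which 0% were called in either direction. Hk2 and Egln3 had too few counts to pass the low-count filter and were not tested in this fit. DESeq2, limma-voom and limma-voom with quality weights also called 0 members at this threshold when all 7 libraries were used. At an unadjusted p under 0.05 edgeR gave 1 member higher in sgNr2f2, the lactate exporter Slc16a3, against 2.18% of all genes tested, and 0 members lower, against 2.82% of all genes. On TMM-scaled levels the groups did not overlap for 2 members that were higher in sgNr2f2, Slc16a3 and Ndrg1 (4.41% of all genes). They also did not for 1 that was lower, Ankrd37 (3.90% of all genes). These shares of members lie near those of all genes. With counts taken over library totals alone, the groups overlapped for each of these members.

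Of the tested members 14 of 37 (37.8%) lay on the higher side in sgNr2f2, against 43.8% of all genes. The median log2 fold change was -0.21 over the members and -0.11 over all 14412 genes tested, and single members ran from -1.70 (Vegfa) to 1.41 (P4ha2). Without sgRosa replicate 4 the members turned to 19 of 36 on the higher side, with a median of 0.06 against -0.03 over all genes, and 9 members changed sign. At an unadjusted p under 0.05, edgeR then gave 2 members higher (Slc16a3 and P4ha2, 6.41% of all genes) and 1 lower (Slc16a1, 4.88% of all genes). P4ha2 was the only member past the adjusted threshold in any of the fits that were run, in DESeq2 without sgRosa replicate 4, where 1.82% of all genes were called higher and 0.823% lower.

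**Figure D1:**
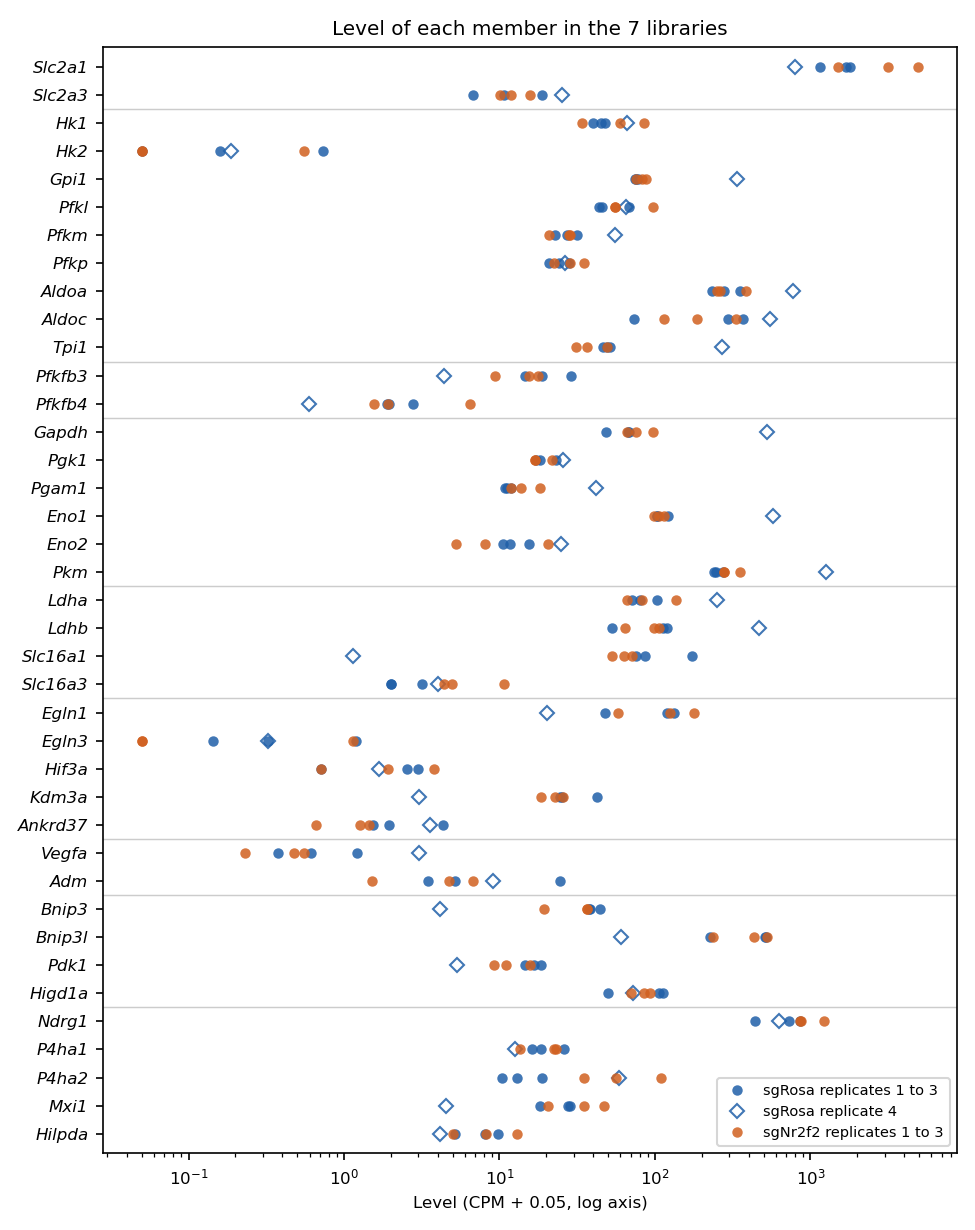
Level of each of the 39 members in the 7 libraries, in CPM with 0.05 added on a log axis, ordered by role from glucose transporters (top) to other HIF targets (bottom). Blue marks are sgRosa libraries, with replicate 4 as an open diamond, and orange marks are sgNr2f2 libraries. The diamond lies to the right of all other marks for most glycolytic enzymes (Gapdh at 525 CPM against 48.5 to 97.1 CPM) and to the left of them for Slc16a1, Kdm3a, Bnip3 and Bnip3l.

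**Figure D2:**
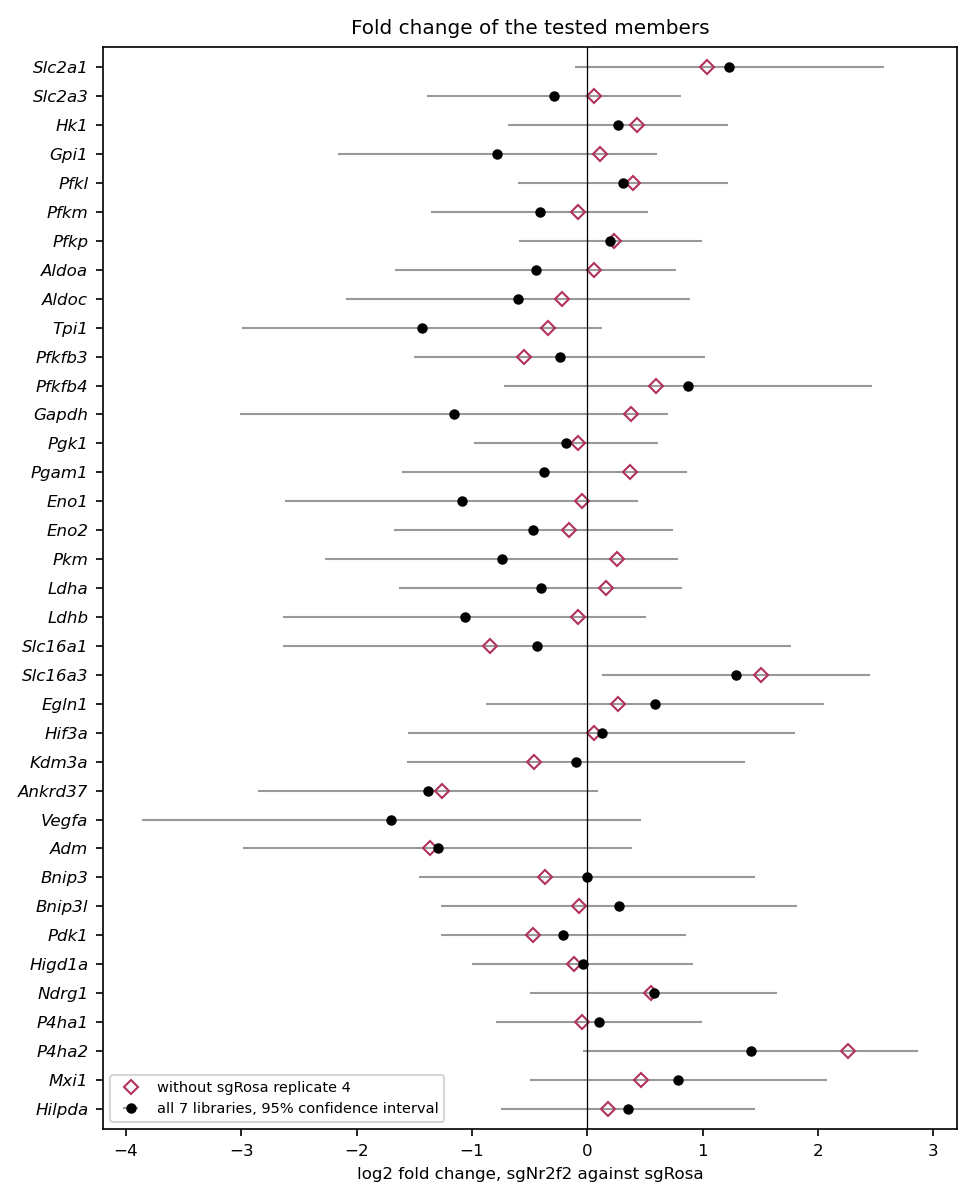
Log2 fold change of sgNr2f2 against sgRosa for the 37 tested members, with all 7 libraries (black points, lines showing the 95% confidence interval) and without sgRosa replicate 4 (open diamonds; Vegfa has none because it failed the low-count filter there). The interval of Slc16a3 lies wholly above 0, and 13 of the 16 glycolytic and lactate dehydrogenase points lie below 0 with all libraries.

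Short DNA elements with the HIF core were looked for in the promoters of the members. RefSeq promoter windows (GRCm38.p6, the 250 bases before an annotated start) were matched for 36 of the 39 members. At least 1 listed window held ACGTG on either strand for 20 of 36 members (55.6%), against 18.5% of all genes with a window and 24.7% of the genes tested. GCGTG stood in 26 of 36 (72.2%), against 30.9% and 48.7%. One of these cores was found in 33 of 36 (91.7%), against 41.5% and 60.2%. A palindromic CACGTG counts as a match on each strand. AGGTCA, the half-site that nuclear receptors including Nr2f2 recognise, stood in 6 of 36 members (16.7%), against 15.8% of all genes and 12.9% of the genes tested. A match of letters is not evidence of binding, and these counts were given no test. A gene with more listed windows had more chances to match, and windows per gene were not matched between members and all genes. The list was drawn up to hold HIF targets, so its share of HIF cores is not independent of that choice. The windows of 5 members named below are printed because their levels or fold changes lead the description, and they were chosen after the values were seen. All run 5′ to 3′ in the direction of the gene, and capitals mark the cores on either strand, where a core on the opposite strand reads as CACGT or, for the second of them, as CACGC. That of the glucose transporter Slc2a1 lies at chr4:119108495-119108744 on the plus strand, that of the lactate exporter Slc16a3 at chr11:120948817-120949066 on the plus strand, and that of the collagen prolyl hydroxylase P4ha2 at chr11:54100674-54100923 on the plus strand. That of Ankrd37 lies at chr8:45999851-46000100 on the minus strand and that of the mitophagy receptor Bnip3 at chr7:138909507-138909756 on the minus strand. The windows of Slc16a3 and Ankrd37 lie inside the annotated spans of their genes (120948484 to 120959000 and 45996908 to 46000414). They therefore precede a start within the gene, whereas the other windows printed adjoin the outer start.
Slc2a1: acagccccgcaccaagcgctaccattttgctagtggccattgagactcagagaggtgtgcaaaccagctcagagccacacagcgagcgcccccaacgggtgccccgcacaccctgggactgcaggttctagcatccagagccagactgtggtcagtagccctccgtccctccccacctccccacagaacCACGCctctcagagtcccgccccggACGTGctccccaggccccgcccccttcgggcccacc
Slc16a3: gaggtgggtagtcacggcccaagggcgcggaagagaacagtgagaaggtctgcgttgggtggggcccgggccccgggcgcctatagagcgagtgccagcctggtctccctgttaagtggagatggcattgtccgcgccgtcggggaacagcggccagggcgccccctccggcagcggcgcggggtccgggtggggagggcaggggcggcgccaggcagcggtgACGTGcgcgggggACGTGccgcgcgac
P4ha2: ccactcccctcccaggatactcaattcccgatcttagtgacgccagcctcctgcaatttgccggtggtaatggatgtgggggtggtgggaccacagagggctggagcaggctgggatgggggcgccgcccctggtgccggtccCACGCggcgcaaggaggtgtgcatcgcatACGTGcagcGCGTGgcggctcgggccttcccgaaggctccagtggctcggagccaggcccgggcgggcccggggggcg
Ankrd37: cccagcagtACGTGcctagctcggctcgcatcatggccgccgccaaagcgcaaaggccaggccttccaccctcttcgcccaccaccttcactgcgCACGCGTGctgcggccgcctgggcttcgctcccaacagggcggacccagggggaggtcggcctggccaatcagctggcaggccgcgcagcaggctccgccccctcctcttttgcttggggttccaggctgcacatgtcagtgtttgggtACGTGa
Bnip3: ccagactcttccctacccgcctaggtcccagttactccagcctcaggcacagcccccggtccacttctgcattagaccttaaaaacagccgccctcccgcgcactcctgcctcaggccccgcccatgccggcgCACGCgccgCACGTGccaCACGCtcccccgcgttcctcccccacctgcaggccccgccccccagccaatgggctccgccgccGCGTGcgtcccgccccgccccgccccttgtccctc

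Among the transporters of glucose, Slc2a1 (GLUT1, chromosome 4, 119108745 to 119137330, GRCm38) was by far the more abundant. Per kilobase of the principal transcript its median level over the 6 libraries other than sgRosa replicate 4 was 537 CPM, the highest of the 39 members, and that of Slc2a3 (GLUT3, the neuronal transporter) was 2.85 CPM. Slc2a1 lay at 1696, 1155, 1807 and 789.6 CPM in sgRosa replicates 1 to 4 and at 1507, 4928 and 3154 CPM in sgNr2f2 replicates 1 to 3. The highest 2 libraries were both sgNr2f2, but replicate 1 of that group lay inside the sgRosa range. The means were 1362 ± 476 CPM (SD, n = 4) and 3196 ± 1711 CPM (n = 3), a log2 fold change of 1.23 (SE 0.60, 95% confidence interval -0.11 to 2.57), which did not pass the test (edgeR adjusted p = 0.868). Over the alternative fits its log2 fold change ran from 0.78 (without sgNr2f2 replicate 2) to 1.57 (without sgNr2f2 replicate 1) and never changed sign. Slc2a3 lay at 18.8, 6.66, 10.7 and 25.3 CPM in sgRosa and at 10.1, 15.6 and 11.9 CPM in sgNr2f2, with the sgNr2f2 libraries inside the sgRosa range. Its log2 fold change of -0.29 (SE 0.50) became 0.05 without sgRosa replicate 4.

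Slc2a1 is a defining transcript of brain endothelial cells, and the endothelial markers moved with it in part. Of the 7 endothelial markers (Cldn5, Pecam1, Flt1, Ly6c1, Itm2a, Tie1 and Cdh5), 5 lay on the higher side in sgNr2f2, none was at 0 in any library, and 4 were highest in sgNr2f2 replicate 2, the library with the highest Slc2a1. Set against the sum of the 7 markers, Slc2a1 had ratios of 0.334, 0.509, 0.567 and 0.190 in the sgRosa libraries, in replicate order, and of 0.605, 0.839 and 1.04 in the sgNr2f2 libraries. These ratios did not overlap between the groups. Against single markers they did not overlap for 2 of the 7 (Ly6c1 and Itm2a) and overlapped for the others. Itm2a was the largest part of the sum in every library but sgRosa replicate 4. For what share of all genes such ratios would not overlap was not computed, here or for the ratios to these markers given below. The ratio was formed after the values were seen and was given no test, and the part of endothelial cell content in the level of Slc2a1 was not tested further.

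No enzyme of upper glycolysis passed the test, and sgRosa replicate 4 was the highest library for most of them. Of the 8 genes tested, 3 were on the higher side in sgNr2f2 and 5 below 0, with a median log2 fold change of -0.43, which became 0.08 without that library. Hexokinase traps glucose as its phosphate, and per kilobase of transcript the median over the 6 libraries other than sgRosa replicate 4 was 12.008 CPM for Hk1 and 0.00982 CPM for Hk2. Hk1 lay at 45.1, 40.0, 47.3 and 65.5 CPM in sgRosa and at 34.0, 84.99 and 59.1 CPM in sgNr2f2, overlapping widely. Hk2, the form that HIF induces, had 0, 2, 10 and 1 counts in sgRosa and 0, 9 and 0 counts in sgNr2f2. A count of 0 allows up to 0.141 CPM in sgRosa replicate 1, 0.182 CPM in sgNr2f2 replicate 1 and 0.182 CPM in sgNr2f2 replicate 3. Gpi1, which turns glucose 6-phosphate into fructose 6-phosphate, came to -0.78 (SE 0.62) on the log2 fold change scale, and its 335 CPM in sgRosa replicate 4 stood against 74.7 to 87.4 CPM in the other 6 libraries.

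Phosphofructokinase commits sugar to glycolysis and has 3 isoforms. Pfkm, the muscle form, lay at 22.5, 27.2, 31.6 and 55.6 CPM in sgRosa and at 27.9, 20.7 and 28.4 CPM in sgNr2f2. Pfkp, the platelet form, lay at 24.2, 27.8, 20.8 and 26.4 CPM and at 28.3, 35.0 and 22.3 CPM. The groups overlapped for both, and the liver form Pfkl had a log2 fold change of 0.31 (SE 0.41). Aldolase cleaves the bisphosphate sugar. Aldoa, its general form, lay at 232, 350.0, 276 and 768 CPM in sgRosa and at 262, 249.9 and 382 CPM in sgNr2f2. Aldoc, the form typical of astrocytes in the forebrain, lay at 73.7, 295, 366 and 546 CPM and at 330.1, 114 and 187 CPM. Within either group Aldoc differed more from library to library than the group means did from each other. Triose phosphate isomerase (Tpi1) had the lowest fold change of the enzymes, -1.43 on the log2 scale (SE 0.70, 95% confidence interval -3.00 to 0.13, edgeR adjusted p = 0.868). Its 271 CPM in sgRosa replicate 4 stood against 30.8 to 51.0 CPM elsewhere, and without that library the log2 fold change was -0.34.

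Pfkfb3 and Pfkfb4 make fructose 2,6-bisphosphate, an activator of phosphofructokinase, and both are known HIF targets. Pfkfb3 lay at 29.0, 18.6, 14.6 and 4.36 CPM in sgRosa and at 15.5, 17.6 and 9.32 CPM in sgNr2f2. The sgNr2f2 libraries fell within the sgRosa range, and the log2 fold change was -0.24 (SE 0.57). Pfkfb4 was scarcer, from 0.545 to 6.42 CPM over the 7 libraries, with a log2 fold change of 0.87 (SE 0.72).

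The 6 enzymes of lower glycolysis, from Gapdh to Pkm, all lay on the lower side in sgNr2f2, a pattern that rested on sgRosa replicate 4. Their median log2 fold change was -0.61 with all libraries and 0.11 without it, when 3 of 6 lay on the higher side. Gapdh, which oxidises glyceraldehyde 3-phosphate, had a level of 177 ± 232 CPM in sgRosa (SD, n = 4) and 79.7 ± 15.8 CPM in sgNr2f2 (n = 3), with a log2 fold change of -1.15 (SE 0.84). Over sgRosa replicates 1 to 3 its level was 61.3 ± 11.1 CPM, and the log2 fold change was 0.38. Pyruvate kinase Pkm changed its sign in the same way, from -0.74 (SE 0.69) to 0.26. Phosphoglycerate mutase Pgam1 did so too, from -0.37 (SE 0.56) to 0.37.

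Pgk1 was the most even of these enzymes and is also a classical HIF target. It lay at 18.3, 22.9, 17.2 and 25.6 CPM in sgRosa replicates 1 to 4 and at 16.8, 16.8 and 21.6 CPM in sgNr2f2 replicates 1 to 3. The 2 groups overlapped, with a log2 fold change of -0.19 (SE 0.36). Enolase turns 2-phosphoglycerate into phosphoenolpyruvate. Eno1, its general form, lay at 121, 104, 103 and 574 CPM in sgRosa and at 106, 114 and 97.9 CPM in sgNr2f2, so that all libraries but sgRosa replicate 4 lay close together. Eno2, the form typical of neurons, lay at 10.5, 11.6, 15.5 and 24.9 CPM and at 5.21, 8.02 and 20.6 CPM. Per kilobase of transcript, over the 6 libraries without sgRosa replicate 4, Eno1 had a median of 51.6 CPM and Eno2 of 3.96 CPM. Several of these counts are uncertain because near-identical copies exist. Of all 50-base words in the principal transcript, the share also found in other annotated genes was 82.5% for Gapdh, 72.2% for Eno1 and 68.0% for Pgk1. It was 41.5% for Pgam1 and 34.4% for Pkm, and most genes sharing words with these enzymes were pseudogenes. Outside lower glycolysis it was, for example, 27.0% for Ldhb, 25.3% for Gpi1 and 25.1% for Bnip3l. How reads with several places were counted is not given in the sources used here.

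Lactate dehydrogenase joins pyruvate and lactate, with Ldha the subunit that HIF induces and Ldhb the one favoured in oxidative tissue. Ldha lay at 103, 71.6, 80.3 and 249 CPM in sgRosa and at 66.4, 136 and 82.9 CPM in sgNr2f2. Ldhb lay at 53.2, 119, 112 and 465 CPM and at 106, 63.6 and 98.6 CPM. With sgRosa replicate 4 set aside, the 2 libraries with the highest Ldha, sgNr2f2 replicate 2 and sgRosa replicate 1, had the lowest Ldhb. The log2 fold change was -0.40 (SE 0.55) for Ldha and -1.06 (SE 0.71) for Ldhb, and neither passed the test. They were 0.16 and -0.084 without sgRosa replicate 4.

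Of the lactate carriers, Slc16a3 (MCT4), known for exporting lactate from glycolytic cells such as astrocytes, was the member with the smallest unadjusted p. It lay at 1.97, 1.95, 3.13 and 3.95 CPM in sgRosa and at 4.36, 10.7 and 4.90 CPM in sgNr2f2. On these TMM-scaled levels each sgNr2f2 library was above each sgRosa library, and the counts behind them ran from 29 to 191. Over library totals alone, sgRosa replicate 4 (29 of 6266897 counts) lay above sgNr2f2 replicates 1 (72 of 18112558) and 3 (81 of 20928677). The means were 2.75 ± 0.973 CPM (SD, n = 4) and 6.66 ± 3.52 CPM (n = 3), a log2 fold change of 1.29 (SE 0.52, 95% confidence interval 0.12 to 2.45), with an unadjusted edgeR p of 0.0332 and an adjusted p of 0.868. Without sgNr2f2 replicate 2, the highest library, the log2 fold change was 0.77, and over the other alternatives it reached 1.54. Of the 8 astrocyte markers, none at 0 in any library, 2 lay on the higher side in sgNr2f2, and their summed levels overlapped between the groups as given above. Set against the sum of the endothelial markers, Slc16a3 did not overlap between the groups, and against single endothelial markers it did not for 3 of 7, which is a description made after the values were seen.

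Slc16a1 (MCT1), a carrier of endothelial cells and oligodendrocytes, had the reverse order among replicates 1 to 3. It was lowest in sgRosa replicate 4 at 1.09 CPM, 67.1-fold under the median of the other 6 libraries, and ran from 52.8 to 71.0 CPM in sgNr2f2 and from 75.4 to 174 CPM in sgRosa replicates 1 to 3. Its log2 fold change was -0.43 (SE 0.99) with all libraries. Without sgRosa replicate 4 it was -0.84 with an unadjusted edgeR p of 0.0415 and an adjusted p of 0.421. Set against each of the 7 endothelial markers and against their sum, Slc16a1 overlapped between the groups with all libraries. sgRosa replicate 4 had the lowest ratio each time. With that library set aside, sgRosa replicates 1 to 3 lay above all sgNr2f2 libraries against Cldn5, Pecam1, Flt1, Tie1 and Cdh5. Against Ly6c1, Itm2a and the sum of the markers the groups still overlapped. These ratios were formed after the values were seen and were given no test.

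Ratios between isozymes or transporters within a library do not depend on how libraries are scaled, and 6 pairs were tested by exact permutation of the group labels (two-sided, 35 arrangements), which cannot give a p below 0.0286. Each ratio was the log2 of the counts with 2 added to each. For Hk2 to Hk1, with Hk2 at 0 to 10 counts, the ratio was set largely by the added counts and is not read here. Even at the smallest possible p, a single pair could not come under 0.05 after adjustment over the 6 pairs. None of the other 5 pairs passed the test, from which no conclusion is drawn. Among them the largest difference was that of Slc2a3 to Slc2a1, with a mean log2 ratio of -6.56 ± 1.16 in sgRosa (SD, n = 4) and -7.85 ± 0.56 in sgNr2f2 (n = 3), a difference of -1.29 (exact permutation p = 0.171, adjusted p = 0.771 over the 6 pairs). Without sgRosa replicate 4 it was -0.75. Pfkp to Pfkm differed by 0.52 (exact permutation p = 0.343) and Ldhb to Ldha by -0.35 (exact permutation p = 0.514). Aldoc to Aldoa differed by -0.11 (exact permutation p = 0.8286) and Eno2 to Eno1 by 0.02 (exact permutation p = 0.971). After adjustment over the 6 pairs these 4 p-values were 0.771 or 0.971.

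**Figure D3:**
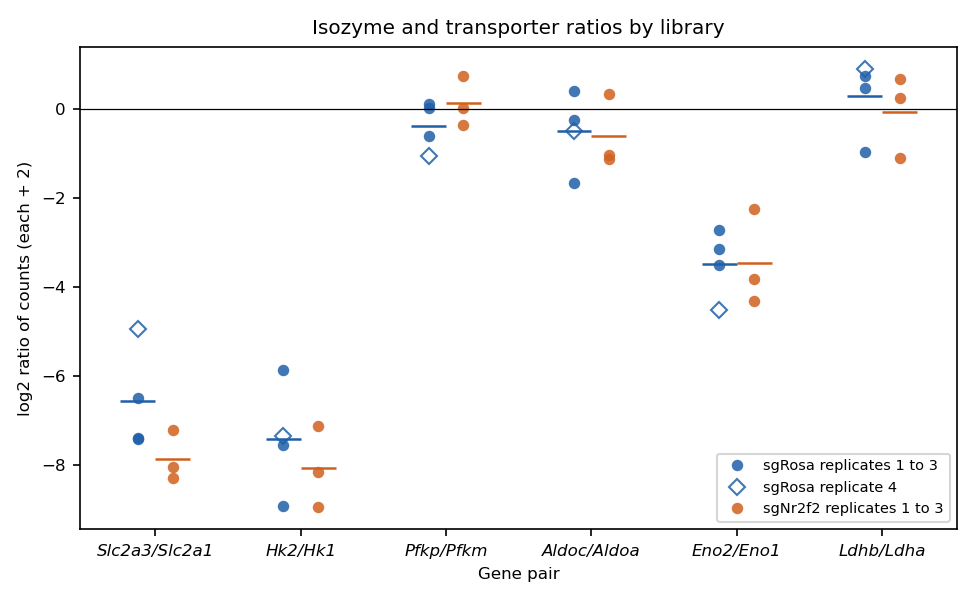
Log2 ratio of counts, with 2 added to each count, for 6 pairs of isozymes or transporters in every library. Bars are group means, blue marks are sgRosa (replicate 4 as an open diamond) and orange marks are sgNr2f2. The groups overlap for all 6 pairs, Hk2 to Hk1 resting largely on the added counts, and the neuronal forms Slc2a3 and Eno2 lie far below Slc2a1 and Eno1 in every library.

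The 15 tested HIF targets outside the glycolytic chain were split in direction, with 8 higher and 7 lower in sgNr2f2 and a median log2 fold change of 0.10. Without sgRosa replicate 4, 6 of 14 lay on the higher side with a median of -0.06. Under scaling by library size alone the median was -0.13, but that scaling also moved the median of all genes from -0.11 to -0.33. Under limma-voom 11 of 15 lay on the higher side with a median of 0.27, and with quality weights 5 of 15 did with a median of -0.23, while the median of all genes was -0.05 in both.

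Genes of oxygen sensing and HIF feedback were mixed. Egln1 (PHD2), the main prolyl hydroxylase that marks HIF-alpha in normal oxygen, had a log2 fold change of 0.59 (SE 0.66). Its level varied from 47.7 to 178 CPM even without sgRosa replicate 4, where it was 20.2 CPM. Egln3, a hydroxylase that HIF induces, had 0 to 21 counts in a library and did not pass the low-count filter of the main fit. Kdm3a, a histone demethylase induced by HIF, had a log2 fold change of -0.10 (SE 0.66). Hif3a, an inhibitory HIF subunit, lay at 0.656, 2.49, 2.92 and 1.64 CPM in sgRosa and at 0.666, 3.76 and 1.88 CPM in sgNr2f2. The groups overlapped, although sgNr2f2 replicate 2 lay above every sgRosa library, and the log2 fold change was 0.13 (SE 0.76).

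Ankrd37, an ankyrin repeat gene known as a strongly hypoxia-induced transcript, was the member whose sgNr2f2 libraries all lay below the sgRosa libraries. It lay at 4.31, 1.90, 1.496 and 3.54 CPM in sgRosa and at 0.606, 1.40 and 1.21 CPM in sgNr2f2. The gap between the lowest sgRosa and the highest sgNr2f2 library was small and held on TMM-scaled levels only. Over library totals alone, sgRosa replicate 3 (22 of 17546894 counts) lay below sgNr2f2 replicate 2 (25 of 16497269). The log2 fold change was -1.38 (SE 0.67, 95% confidence interval -2.86 to 0.10, edgeR adjusted p = 0.868), and it ran from -1.70 to -0.88 over the alternatives. Its libraries held only 10 to 92 counts. The gene overlaps Lrp2bp and Ufsp2 on the opposite strand with 26.4% of its exon bases, and reads of these genes cannot be told apart from its own where the counting ignored strand.

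The 2 secreted HIF targets had the lowest fold changes of all groups of members. Vegfa, the main angiogenic growth factor, lay at 0.563, 0.325, 1.16 and 3.00 CPM in sgRosa and at 0.182, 0.505 and 0.424 CPM in sgNr2f2, on 3 to 22 counts per library. sgRosa replicates 1, 3 and 4 lay above all sgNr2f2 libraries, and sgRosa replicate 2 lay among them. Its log2 fold change was -1.70 (SE 0.98, edgeR adjusted p = 0.868). Without sgRosa replicate 4 the gene failed the low-count filter. Adrenomedullin (Adm), a vasodilating peptide, had a log2 fold change of -1.30 (SE 0.76). It was highest in sgRosa replicate 1 at 24.5 CPM, against 1.45 to 8.99 CPM in the other 6 libraries.

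Of the 4 HIF targets of mitochondria 1 was on the higher side, with a median log2 fold change of -0.02, and none passed the test. With sgRosa replicate 4 left out, 0 of 4 were on the higher side and the median was -0.24. Bnip3, a receptor that marks mitochondria for mitophagy, lay at 37.5, 44.0, 37.9 and 4.09 CPM in sgRosa and at 19.4, 36.7 and 36.3 CPM in sgNr2f2. Outside sgRosa replicate 4 only sgNr2f2 replicate 1 was low, and the log2 fold change was -0.01 (SE 0.66) with all libraries and -0.37 without sgRosa replicate 4. Its relative Bnip3l had 60.2 CPM in sgRosa replicate 4 and 227 to 526 CPM in the others, with a log2 fold change of 0.28 (SE 0.70). Pdk1, the kinase that keeps pyruvate out of the citric acid cycle, had -0.21 (SE 0.48), and Higd1a, a small protein of the respiratory chain, had -0.04 (SE 0.43). The values without sgRosa replicate 4 were -0.47 for Pdk1, -0.12 for Higd1a and -0.071 for Bnip3l. For Bnip3 62.4% of the 50-base words and for Higd1a 36.6% also occur in other genes.

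The remaining 5 HIF targets all lay on the higher side in sgNr2f2, with a median log2 fold change of 0.57, 4 of 5 did so without sgRosa replicate 4 and under scaling by library size alone, and 3 of 5 without sgNr2f2 replicate 2. Ndrg1, a stress-responsive gene needed for myelin maintenance, was the second of the members whose sgNr2f2 libraries were all above the sgRosa libraries. It lay at 438, 850.3, 728 and 625 CPM in sgRosa and at 860.5, 875 and 1215 CPM in sgNr2f2. The separation was narrow on TMM-scaled levels, with sgRosa replicate 2 just under sgNr2f2 replicate 1. Over library totals alone, sgRosa replicate 2 (15705 of 19788953 counts) lay just above sgNr2f2 replicate 1 (14207 of 18112558). The log2 fold change was 0.57 (SE 0.48, edgeR adjusted p = 0.893). All 10 oligodendrocyte markers lay on the higher side in sgNr2f2 as well, with a median log2 fold change of 0.54 and none at 0. Leaving out sgRosa replicate 4, 9 of 10 did so, with a median of 0.22. Their part in the level of Ndrg1 was not tested.

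P4ha2, a subunit of the hydroxylase that modifies collagen, had the highest fold change of the members, and its library values are given after the fold changes were seen. It lay at 13.0, 10.3, 18.7 and 58.7 CPM in sgRosa and at 35.0, 110.0 and 55.7 CPM in sgNr2f2. The sgNr2f2 libraries were all above sgRosa replicates 1 to 3, while sgRosa replicate 4 lay among them. With all libraries the log2 fold change was 1.41 (SE 0.65, 95% confidence interval -0.04 to 2.87, edgeR adjusted p = 0.868). Without sgRosa replicate 4 it was 2.26 with an edgeR adjusted p of 0.235, and DESeq2 gave 2.29 with an adjusted p of 0.000505. Set against single endothelial markers, P4ha2 did not overlap between the groups for 2 of 7. Against their sum it overlapped, with a highest sgRosa ratio of 0.0141, in replicate 4, and a lowest sgNr2f2 ratio of 0.0140. In sgRosa replicates 1 to 3 the ratio to the sum was 0.00255, 0.00455 and 0.00587, below all sgNr2f2 libraries. With sgRosa replicate 4 set aside, the groups did not overlap against any single marker either. These ratios were formed after the values were seen and were given no test. Its relative P4ha1 had a log2 fold change of 0.10 (SE 0.40), the MYC antagonist Mxi1 0.79 (SE 0.58) and the lipid droplet protein gene Hilpda 0.35 (SE 0.50).

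sgRosa replicate 4 differed from the other 6 libraries in opposite directions for the glycolytic genes and the HIF targets. It was the highest library for 13 of the 16 tested glycolytic and lactate dehydrogenase genes and the lowest for 0, with a median ratio of 2.95 to the median of the other libraries (range 1.02 for Pfkp to 7.75 for Gapdh). For the 15 tested HIF targets it was the highest for 1 and the lowest for 8, with a median ratio of 0.613 (range 0.1102 for Bnip3 to 6.46 for Vegfa). Over all 37 members it was the highest library for 40.5% and the lowest for 32.4%, and over all genes tested for 32.7% and 35.8%. GC content moved with this pattern. The principal transcripts of the glycolytic genes had a median GC content of 54.1% and those of the HIF targets of 51.1%, and across genes the ratio followed GC content with a Spearman rho of 0.47 over the 37 members and 0.39 over the 13575 genes with a known GC content. It followed transcript length with a rho of -0.57 over the members and -0.20 over all of these genes. Genes within 1 library are not independent replicates, so these correlations are descriptions. sgRosa replicate 4 also had the highest neuron marker sum and the lowest oligodendrocyte marker sum, as given above. The part of GC content, length, low depth, or erythroid, neuron and oligodendrocyte RNA in the pattern was not tested.

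**Figure D4:**
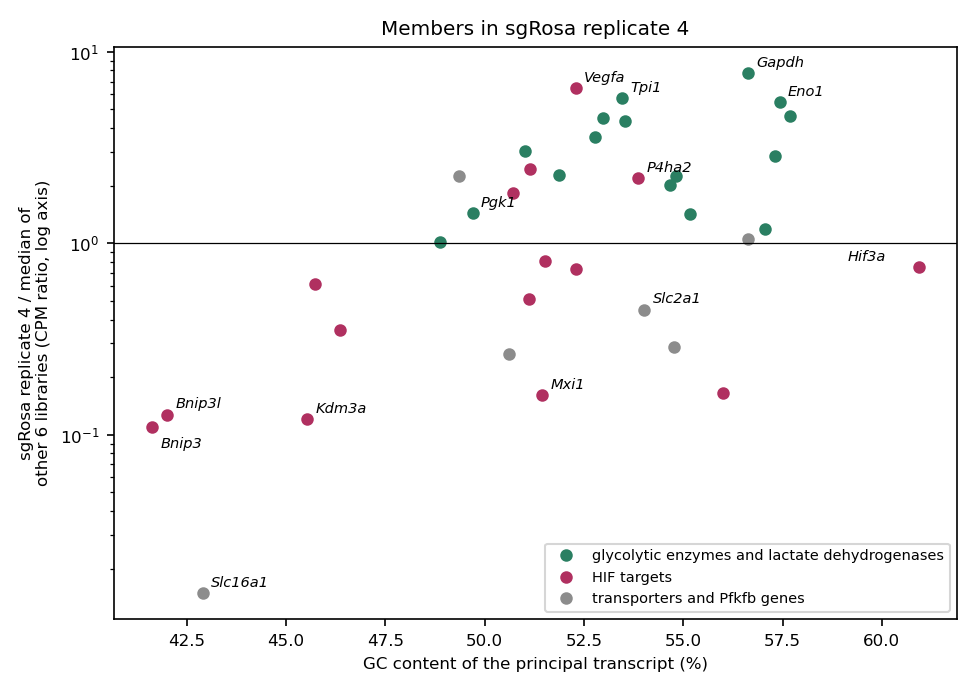
Level of each tested member in sgRosa replicate 4 divided by its median in the other 6 libraries (log axis) against the GC content of its principal transcript in percent, 1 point per gene, coloured by set. Glycolytic and lactate dehydrogenase genes lie between 1.02 and 7.75, and Bnip3, Bnip3l, Kdm3a and Slc16a1, the 4 members with the lowest GC content, lie lowest.

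Other genes of these pathways, from lists of 105 genes, also gave no call: 93 were tested, 42 had a positive fold change and 51 a negative one, and 0 passed the adjusted threshold in edgeR. At an unadjusted p under 0.05, 1 was higher (2.18% of all genes) and 1 lower (2.82% of all genes). The groups did not overlap for 6 of the 93 that were higher in sgNr2f2, against 4.41% of all genes, and for 2 that were lower, against 3.90%. Of the oxygen sensing machinery 8 of 10 lay on the higher side, with a median log2 fold change of 0.37. Epas1 (HIF-2-alpha), the HIF subunit typical of endothelial cells, lay at 394 ± 184 CPM in sgRosa (SD, n = 4) and 855 ± 289 CPM in sgNr2f2 (n = 3). On TMM-scaled levels each sgNr2f2 library was above each sgRosa library. Over library totals alone, sgRosa replicate 1 lay above sgNr2f2 replicates 1 and 3. Epas1 had a log2 fold change of 1.12 (SE 0.55, edgeR adjusted p = 0.868), and set against single endothelial markers it did not overlap for 4 of 7. The ubiquitin ligase gene Siah2 stood at 1.19 (SE 0.62), and Hif1an, the asparaginyl hydroxylase of HIF, 0.56 (SE 0.43).

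Of the other HIF targets 16 of 32 lay on the higher side. Kdm4b, a histone demethylase, lay at 16.7 ± 2.30 CPM in sgRosa (SD, n = 4) and 29.4 ± 6.55 CPM in sgNr2f2 (n = 3), with a log2 fold change of 0.81 (SE 0.36). Its unadjusted edgeR p was 0.0458 and its adjusted p 0.868. Heme oxygenase Hmox1 had -2.04 (SE 0.94), and Angptl4, a secreted lipase inhibitor, 1.09 (SE 0.66). Leaving out sgRosa replicate 4 gave -1.27 for Hmox1 and 1.80 for Angptl4, the latter with an unadjusted edgeR p of 0.0072. Of the other glycolysis genes and side branches 8 of 27 lay on the higher side, and 12 of 26 did so without sgRosa replicate 4. The glycerol phosphate dehydrogenase Gpd1, typical of oligodendrocytes, had 0.99 (SE 0.66). Of the genes of pyruvate and monocarboxylate handling 10 of 24 lay on the higher side. Emb (embigin), a partner that brings monocarboxylate transporters to the cell surface, had the lowest p of all genes listed. Its level was 22.8 ± 7.82 CPM in sgRosa (SD, n = 4) and 6.37 ± 4.56 CPM in sgNr2f2 (n = 3), and each sgNr2f2 library was below each sgRosa library. The log2 fold change was -1.83 (SE 0.54), and without sgRosa replicate 4 it was -1.60. The edgeR test gave an unadjusted p of 0.00662 and an adjusted p of 0.868. Pdp1, the phosphatase that activates pyruvate dehydrogenase, lay at 23.8 ± 9.60 and 45.9 ± 0.441 CPM, with a log2 fold change of 0.94 (SE 0.43, edgeR adjusted p = 0.868).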

How the data were processed

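Each library was deposited by the authors as a list of raw counts by gene symbol, and again as a column of a series table with the same values in all 7 columns. The counts are whole numbers without normalization, and 11650 of the 35976 symbols had none. The submitters' processing notes list fastp (0.23.2), FastQC (0.11.9) and MultiQC (1.11), STAR (2.7.5c), featureCounts (2.0.1), edgeR (3.42.4) and the mm10 build, with no role or order for the tools. Which annotation was used, whether strand was used and how reads with several places were treated is not stated in the sources used here.

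Groups came from the labels. Both were compared with edgeR 4.0.16 (R 4.3.3) by its quasi-likelihood F test on TMM-scaled counts of all 7 libraries. Its filter on low counts kept 14412 genes, group was the only term, and p-values were adjusted over these genes (Benjamini-Hochberg, threshold 0.05). Alternatives were other scalings, no filter, DESeq2 1.42.0, limma-voom (limma 3.58.1) with and without quality weights, a replicate block and leaving out each library. Confidence intervals of fold changes are at 95%. Limits given for a count of 0 use 3 counts per library and cover counting error only, since the labels name no molecular identifiers. Ratios of isozymes were compared with scipy 1.17.1.

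The members and gene lists were chosen with earlier results of these data known. Library values are given for members with an unadjusted p under 0.05 or groups that did not overlap, for the genes of the 6 ratios, and for Vegfa, Hif3a, Pfkfb3, Pgk1 and Bnip3. Of the other pathway genes, names come from the 5 with the smallest p per list, and Nr2f2 is always given. Coordinates and promoters are from RefSeq (GRCm38.p6), and transcript length, GC content and shared 50-base words from the principal transcripts of GENCODE M21.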

Additional observations from a re-analysis of the deposited data

Results flagged for a closer look

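In 8 of the 37 tested members (21.6%) sgRosa replicate 4 lay far from the other sgRosa libraries, with a gap to its nearest neighbour, relative to the range, above Dixon's critical value for 4 samples. The same library lay so for 16.6% of all genes tested, and any of the 4 sgRosa libraries for 18.6%, where chance gives about 1 in 20 for any of the 4. The values were 335 CPM for Gpi1, 271 CPM for Tpi1, 525 CPM for Gapdh, 42.0 CPM for Pgam1, 574 CPM for Eno1, 1266 CPM for Pkm and 465 CPM for Ldhb, all above the other sgRosa libraries, and 4.09 CPM for Bnip3, below them. The group of 3 sgNr2f2 libraries was too small for this check. None of the 6 isozyme ratios met it. The same library had the lowest total count, the highest erythroid and neuron marker sums and the lowest oligodendrocyte marker sum. The part of each in these values was not tested.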

How the results depend on the processing

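Over 588 fold changes of members under the alternatives, 523 kept their direction and 65 reversed. In 17 members none reversed, among them Slc16a3, Slc2a1, P4ha2, Ndrg1, Ankrd37 and Tpi1. edgeR called 0 members and 0 genes at the adjusted threshold under each scaling, without the filter and without each library in turn.

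Scaling by library size alone put 127 genes above and 621 genes below 0 with an unadjusted p under 0.05, with 0 members higher, 1 lower and a member median of -0.43. It moved the median log2 fold change of all genes from -0.11 to -0.33, and P4ha1 went to -0.13. Scaling with RLE size factors put Bnip3 at 0.021. Without the low-count filter 413 of 24326 genes were higher and 1235 lower at the unadjusted threshold, with 2 members higher and 1 lower. DESeq2 called 7 of 14412 genes at the adjusted threshold, and 429 higher and 665 lower at the unadjusted. At the unadjusted threshold it put 2 members higher and 1 lower, and it gave Bnip3 0.022. limma-voom put 348 of 14412 genes and 2 members higher at the unadjusted threshold. It gave 0.32 for Bnip3, 0.021 for Higd1a, 0.27 for Kdm3a and 0.85 for Slc16a1. Quality weights gave 1047 genes higher and 1065 lower, with 2 members higher and a member median of 0.0030. They turned Aldoa to 0.11, Bnip3l to -0.010, Gapdh to 0.22, Gpi1 to 0.025, Hif3a to -0.44, Ldha to 0.056, P4ha1 to -0.11, Pgam1 to 0.22, Pgk1 to 0.0030, Pkm to 0.17 and Slc2a3 to 0.30.

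DESeq2 without sgRosa replicate 4 called 372 genes, and at the unadjusted threshold 1088 higher and 746 lower. It called 1 member at the adjusted threshold (P4ha2), gave 3 members higher and 1 lower at the unadjusted, and a member median of 0.087. It turned Aldoa to 0.085, Bnip3l to -0.050, Gapdh to 0.40, Gpi1 to 0.14, Ldha to 0.20, P4ha1 to -0.010, Pgam1 to 0.40, Pkm to 0.29 and Slc2a3 to 0.088. The cause of these differences was not tested.

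The groups share replicate numbers 1 to 3, but deviations of same-numbered libraries correlated at -0.20, -0.26 and 0.09, and no sgNr2f2 library correlated best with its own number, so the numbers were not taken to pair the libraries. The replicate block leaves sgRosa replicate 4 without a partner. With the block, 496 genes were higher, with 2 members higher and a member median of -0.0050. Aldoa went to 0.053, Bnip3l to -0.049, Gapdh to 0.37, Gpi1 to 0.11, Hif3a to -0.0050, Ldha to 0.11, P4ha1 to -0.053, Pgam1 to 0.35, Pkm to 0.25 and Slc2a3 to 0.16, and the block turned the ratio of Eno2 to Eno1 to -0.33.

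Leaving out each library in turn gave 163 to 904 genes higher and 336 to 688 lower at the unadjusted threshold. Both highest counts came without sgRosa replicate 4, and 163 without sgNr2f2 replicate 2. Members numbered 0 to 3 higher and 0 to 1 lower, and their median ran from -0.24 to 0.06. The ranges of log2 fold changes that crossed 0 were -0.65 to 0.058 for Aldoa, -0.37 to 0.24 for Bnip3, -0.071 to 0.63 for Bnip3l, -1.48 to 0.38 for Gapdh, -0.998 to 0.11 for Gpi1, -0.59 to 0.56 for Hif3a, -0.23 to 0.16 for Higd1a, -0.047 to 0.63 for Hilpda, -0.084 to 0.54 for Hk1, -0.46 to 0.33 for Kdm3a, -0.75 to 0.16 for Ldha and -0.043 to 0.32 for P4ha1. Further ones were -0.55 to 0.17 for Pfkfb3, -0.079 to 1.22 for Pfkfb4, -0.010 to 0.46 for Pfkl, -0.58 to 0.37 for Pgam1, -0.96 to 0.26 for Pkm, -0.84 to 0.20 for Slc16a1 and -0.53 to 0.055 for Slc2a3. The ratios ran from -0.58 to 0.19 for Aldoc to Aldoa, from -0.59 to 0.44 for Eno2 to Eno1 and from -0.76 to 0.17 for Ldhb to Ldha. With 3 or 4 libraries a group, differences of the size seen in most members lie within the spread. The low-count filter kept Hk2 and Egln3 out of the main fit, and the fit without the filter held all 39 members. Vegfa, among the 17, rests on at most 22 counts per library and failed the filter in 4 alternatives.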
